A study of Mus musculus with 6 samples.

Results

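Cluster 1 of the day 14 germinal centre (GC) B cells held 4328 of the 19757 Day14 cells and of the 38651 cells in the series. Its members were the cells to which the deposited annotation of the Day14 cells gives the cluster number 1. They numbered 2060 of the 9109 cells of replicate 1 (22.6%, Clopper-Pearson 95% interval 21.8 to 23.5%) and 2268 of the 10648 cells of replicate 2 (21.3%, 20.5 to 22.1%). The working name for these cells was resting light zone cells, with Abca1, Arhgap24, Rapgef4 and Mxd4 as markers. Cell cycle genes and MYC-driven growth genes were low in these cells, and quiescence and FOXO target genes were higher about as rarely as all genes. Of 20 measured, 13 of which reached 20 CPM, 1 was higher against all other cells (median log2 ratio 0.17). Of all tested genes 4.92% were higher there. None of 21 was higher against other G1 cells, where 1.03% of all tested genes were. Both counts are near these shares, so they do not decide whether the cells rest. Of 10 light zone activation genes, 5 were higher by the size rule below than in all other cells. None was higher than in other light zone cells or in other G1 cells, where 2.16% and 1.03% of all tested genes were. Of the other G1 cells 68.4% and 68.0% were also called light zone, so these 2 comparisons cannot decide the zone. The dark zone call was carried by 29.9% and 28.97% of the cells, so the population is called cluster 1 here.

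Germinal centres are structures in which antigen-activated B cells divide, mutate their antibody genes and are selected. In the dark zone the cells divide and mutate their immunoglobulin genes. In the light zone the cells take up antigen, show it to follicular helper T cells on MHC class II molecules and, when helped, switch on MYC, grow and return to the cell cycle. Most light zone B cells are small and between divisions, and those that fail to gain help die.

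The Day14 libraries came from spleens of wild type mice taken on day 14 after immunisation with an NP-haptenated antigen in alum adjuvant, from cells sorted as B220+ CD95hi GL7hi IgD-. Messenger RNA was counted as unique molecular identifiers (UMIs) by 10x 5′ single-cell sequencing. The labels do not say that the 2 replicates of Day14 were separate animals. At the end the report also uses 4 further libraries, all from spleens after the same immunisation. These were 2 Day7 libraries (wild type, day 7, sorted as B220+ CD38- GL7hi) and 2 chimaera libraries (day 14, sorted as Day14). One chimaera group, the control, consisted of irradiated Il4ra+/+ hosts and the other, the KO, of irradiated Ccl19Cre/+ Il4raf/f hosts, both given wild type bone marrow. In the KO the deletion therefore lay in the irradiated host and followed the Ccl19 promoter, which is active in stromal cells of lymphoid tissue. The B cells that grew from donor marrow carried Il4ra in both.

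The Day14 libraries held 35637133 and 39839045 UMIs, with medians of 3399 and 3178.5 per cell. They shared 135 barcodes (1.48% and 1.27% of their cells), of which 8 were in cluster 1 of both. Cluster 7, with 321 cells, was in replicate 2 only, and cluster 6 made up 5.87% of replicate 1 and 2.88% of replicate 2. A doublet caller marked 1 cell and 0 cells, too few to have worked, so no doublets were removed. Of the defining markers of other cell types, Cd8a (T cells) and Pdpn, Col3a1, Ccl19 and Ccl21a (stroma) had 0 counts in cluster 1 of both libraries. The 9 T cell markers summed to 145 and 169 CPM in cluster 1 and 109 and 117 CPM in the other cells, nearly all from Lck, and the 9 myeloid markers to 74.8 and 41.1 CPM against 63.2 and 36.8 CPM. The 8 stromal markers summed to 0.84 and 0.93 CPM against 1.09 and 1.55 CPM, and the 5 erythroid markers to 196 and 179.5 CPM against 138 and 137 CPM. Every erythroid marker had counts in cluster 1, led by the haemoglobin genes Hbb-bs and Hbb-bt, whose part in any result was not tested. Of the genes of the sort, Ptprc (B220) was at 724 and 709 CPM against 595 and 605 CPM, Fas (CD95) at 99.8 and 111 CPM against 85.2 and 89.1 CPM and Ighd (IgD) at 53.99 and 44.9 CPM against 62.5 and 34.1 CPM, each cluster 1 first and the other cells second.

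Most cells of cluster 1 carried a G1 call. In replicates 1 and 2, 93.1% and 93.4% carried the deposited G1 call, 4.51% and 4.497% an S call and 2.38% and 2.12% a G2/M call, whereas 27.4% and 27.1% of the other cells carried the G1 call. The light zone call was given to 68.6% of cluster 1 in each library and the dark zone call to 29.9% and 28.97%. Among the other cells 29.9% were called light zone in each library. The cluster thus held 49.8% and 48.3% of all G1 cells and 40.1% and 38.3% of all light zone cells. It held about as large a share of the dark zone G1 cells (47.3% and 45.4%) as of the light zone G1 cells (50.8% and 49.2%). How the submitters made the phase, zone and cluster calls is not given in the sources used here.

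A cluster is drawn from the expression of the cells themselves, so a comparison of cluster 1 with other cells is no test, and no p-value is given. Counts were summed over the cells of each side within each library and expressed per 1000000 UMIs of that side (CPM). Each comparison is a log2 ratio of these levels with an exact 95% binomial interval, which covers counting error only. A gene is called higher or lower in cluster 1 where, in both libraries, it reached 20 CPM on either side, its log2 ratio was at least 0.5 in size with the same sign, and its interval left out equality. The share of all tested genes that met this rule is given once for each comparison, and counts of list members are to be read against it. All tested genes reached 20 CPM, whereas list counts are over members at 5 CPM or more. Members under 20 CPM cannot meet the rule, so the share of a list can be understated.

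The 4 marker genes of the working name were all higher in cluster 1 than in the other cells as a whole. They were proposed as its markers from these data, so their values are a description. Abca1 (chr4:53030787-53159895, minus strand, GRCm38) encodes a transporter that moves cholesterol out of the cell. It was at 33.7 and 26.8 CPM against 12.7 and 8.75 CPM, log2 ratios of 1.41 (1.17 to 1.65) and 1.61 (1.35 to 1.88). Arhgap24 (chr5:102481391-102897937, plus strand) encodes a GTPase-activating protein that switches off small GTPases. Its levels were 54.7 and 62.4 CPM against 24.4 and 22.4 CPM, log2 ratios of 1.16 (0.98 to 1.35) and 1.48 (1.31 to 1.65). Rapgef4 (chr2:71981240-72257474, plus strand) encodes EPAC2, a cAMP-activated exchange factor for the GTPase Rap. Its levels were 24.6 and 25.7 CPM against 10.7 and 8.91 CPM, log2 ratios of 1.20 (0.92 to 1.47) and 1.53 (1.26 to 1.80). Mxd4 (chr5:34173883-34187720, minus strand) encodes a partner of MAX that opposes MYC. Its levels were 149 and 155 CPM against 64.96 and 63.9 CPM, log2 ratios of 1.20 (1.09 to 1.31) and 1.27 (1.17 to 1.38). For each of the 4, both libraries of cluster 1 lay above both libraries of the other cells.

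None of the 4 marked cluster 1 by itself. Abca1 was as high in cluster 3 (34.03 and 25.3 CPM) as in cluster 1 and reached 28.4 and 21.5 CPM in cluster 6, but stayed at 8.403 and 7.37 CPM in cluster 0 and 7.79 and 4.51 CPM in cluster 4. Arhgap24 reached 44.03 and 46.9 CPM in cluster 6 and 37.6 and 34.8 CPM in cluster 5, below cluster 1, and was lowest among the larger clusters in cluster 4 (12.1 and 9.66 CPM). Rapgef4 was at 23.8 and 32.5 CPM in cluster 6 and 24.95 and 16.03 CPM in cluster 3, each above cluster 1 in 1 library and below it in the other. Mxd4 was at 128 and 123 CPM in cluster 3 and lowest at 20.5 and 24.4 CPM in cluster 5. All 4 genes were lower in clusters 0, 2 and 4, whose highest list medians were those of cell cycle genes, than in clusters 1 and 3.

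**Figure D1:**
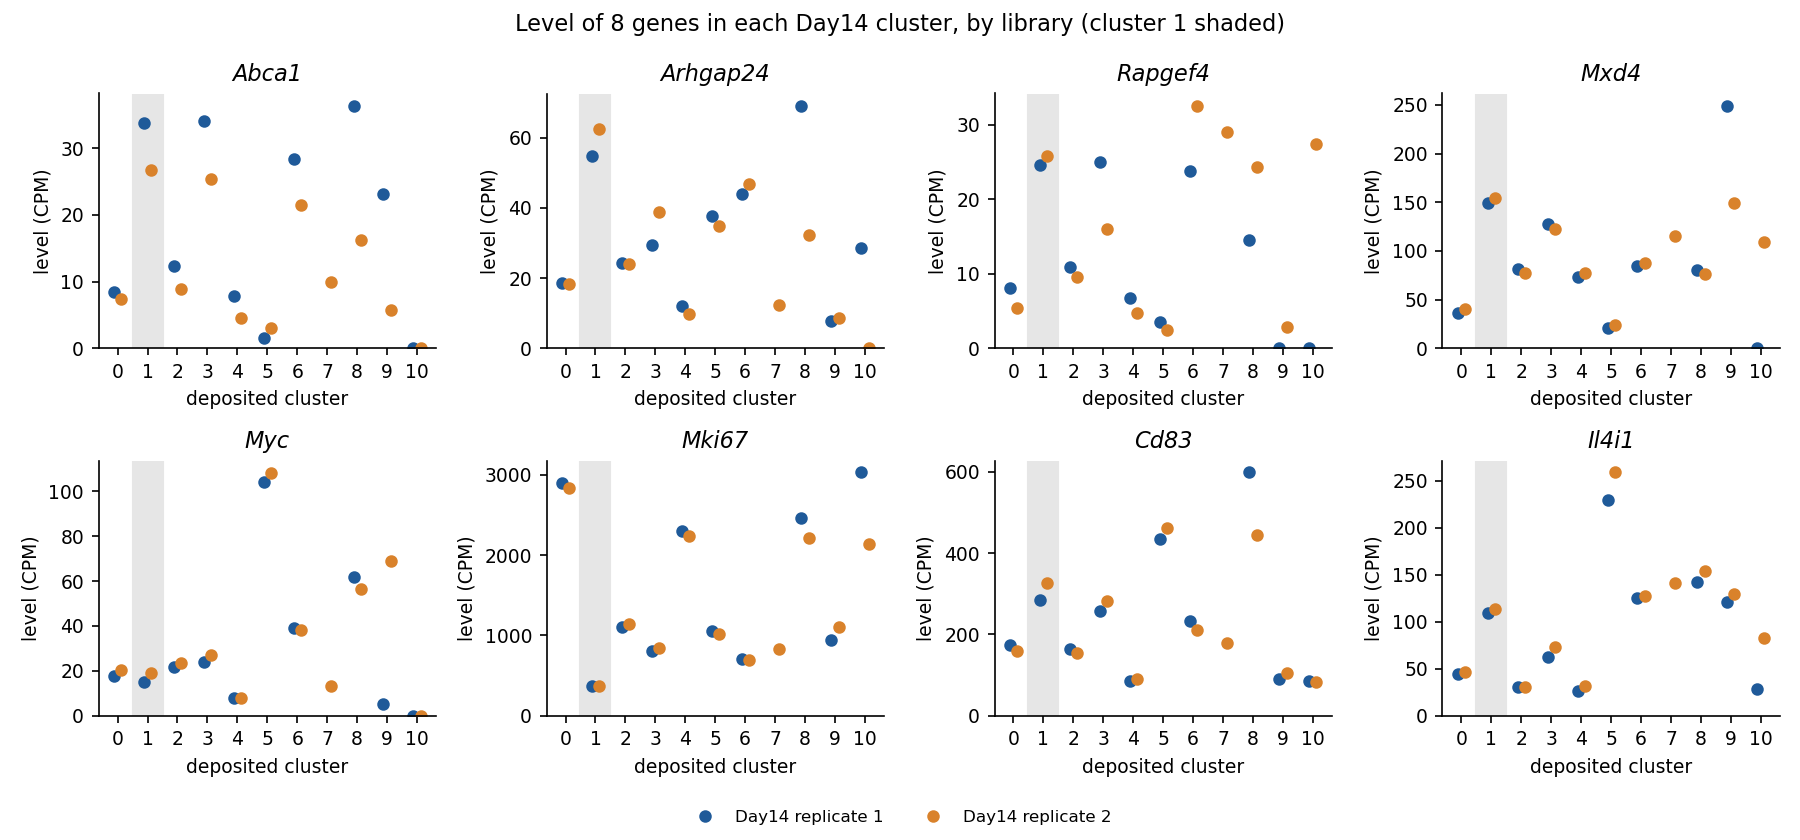
Level of 8 genes in CPM (y axis, from 0) in each deposited Day14 cluster (x axis), with 1 point per library and cluster 1 shaded. Abca1 was at 33.7 and 26.8 CPM in cluster 1 and 34.0 and 25.3 CPM in cluster 3, Myc was highest in cluster 5 at 104 and 108 CPM, and Mki67 was at 372 and 368 CPM in cluster 1.

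Against all other Day14 cells, 304 of 6173 genes (4.92%) were higher in cluster 1 and 605 (9.8%) were lower. The median log2 ratio was 0.03 over the 9150 genes at 5 CPM or more, the minimum for members of a list, and the ratios of the libraries differed by a median of 0.085. With replicate 2 alone 530 genes were higher, and with replicate 1 alone 386, since the rule then asks for 1 library only. The higher genes were modest in size: 12 of them passed a log2 ratio of 1 in both libraries, against 307 of the lower ones. Cells of cluster 1 had a median of 2988.5 and 2842 UMIs against 3582 and 3296 in the other cells, and 6.61% and 6.64% of mitochondrial UMIs against 8.13% and 8.58%.

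Besides the 4 markers, the genes with the largest higher ratios were a mix of membrane, signalling and cytoskeletal genes. Cd300lf, an immune receptor of the CD300 family, was at 31.1 and 35.8 CPM against 12.3 and 14.01 CPM, log2 ratios of 1.34 and 1.36. Ddit4, which encodes an inhibitor of the growth kinase complex mTORC1, was at 26.7 and 27.2 CPM against 12.2 and 11.2 CPM, log2 ratios of 1.13 and 1.28. Sla, which encodes an adaptor that dampens antigen receptor signalling, was at 25.3 and 28.9 CPM against 12.9 and 10.7 CPM, log2 ratios of 0.98 and 1.43. In each case the lower of the cluster 1 libraries stood above the higher of the other cells. Trpm5, a calcium-activated cation channel, had log2 ratios of 1.01 and 1.20, and Gsn, which encodes the actin-severing protein gelsolin, 0.95 and 1.18. Sapcd1 (0.93 and 1.07), Tm6sf1 (0.92 and 1.30) and Nxpe2 (0.91 and 1.10) completed the 12 largest among the genes that could be named. Immunoglobulin, mitochondrial, ribosomal and predicted genes are left out of this ranking, and some of them had larger ratios. The same genes are left out of the largest ratios named below.

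**Figure D2:**
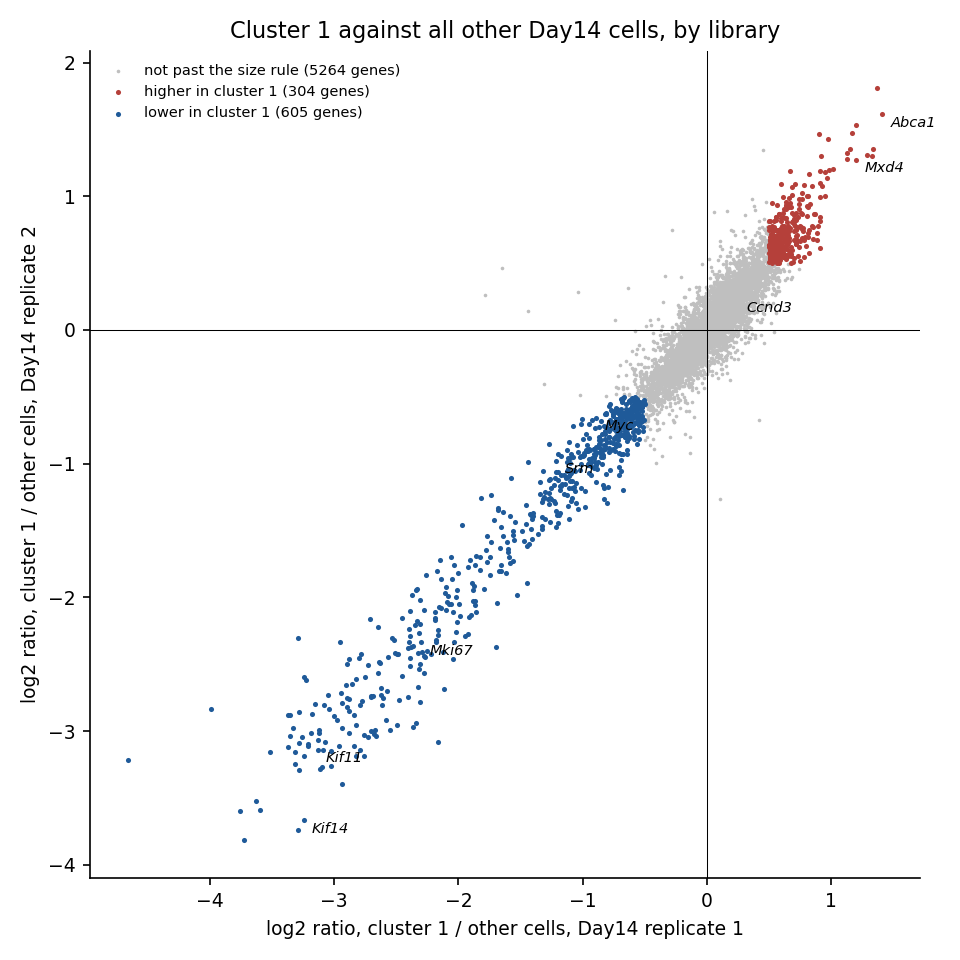
Log2 ratio of cluster 1 to all other Day14 cells in replicate 1 (x axis) and replicate 2 (y axis), 1 point per gene, for 6173 genes. The 304 higher genes (red) start at 0.5, with Abca1 at 1.41 and 1.61, and the 605 lower ones (blue) reach further from 0, with Kif14 at -3.25 and -3.67.

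The lower genes were led by the machinery of mitosis and by histone genes. Kif11, the motor that pushes the spindle poles apart, was at 19.97 and 21.9 CPM against 175 and 192 CPM, log2 ratios of -3.13 (-3.38 to -2.89) and -3.14 (-3.37 to -2.91). Kif14, a motor of cytokinesis, was at 3.23 and 2.93 CPM against 30.7 and 37.2 CPM, log2 ratios of -3.25 and -3.67. Sgo2a, which encodes a shugoshin that protects the cohesion of chromosomes, was at 7.03 and 7.06 CPM against 84.98 and 84.98 CPM, log2 ratios of -3.60 and -3.59. Both libraries of cluster 1 lay far below both libraries of the other cells for each of these genes. Among the 12 lowest were also Parpbp (-3.24 and -3.18), Ska1 of the kinetochore (-3.51 and -3.15), Pif1, a DNA helicase (-3.32 and -3.24), and Ankle1, an endonuclease (-3.29 and -3.74). The 5 others were replication-dependent histone genes such as Hist1h2ap, at 622 and 795 CPM against 7697 and 9135 CPM. Their near-identical copies can share reads, so the value of any single histone gene is uncertain.

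Every gene of the G2/M list that was measured was lower, 19 of 19, with a median log2 ratio of -2.50. Mki67, the proliferation marker Ki-67, was at 372 and 368 CPM against 1831 and 1858 CPM, log2 ratios of -2.30 and -2.34. Top2a, which untangles replicated chromosomes, was at 115 and 115 CPM against 876 and 905 CPM, log2 ratios of -2.93 and -2.97. Cdk1, the kinase that drives mitosis, was at 9.701 and 10.4 CPM against 71.4 and 75.1 CPM, log2 ratios of -2.88 and -2.85. The smallest change in the list was that of Ccnb2, a mitotic cyclin, at -0.69 and -0.97. Of the S phase list 19 of 20 were lower, with a median of -1.13, and the one that missed the rule was Mcm6 (-0.53 and -0.39). Rrm2, a subunit of the enzyme that makes deoxynucleotides, was at 16.03 and 16.3 CPM against 111 and 113 CPM, log2 ratios of -2.79 and -2.80. Cdc6, which loads the replicative helicase, had ratios of -2.40 and -2.34, and Mcm5, a subunit of that helicase, -1.34 and -1.23. The phase calls and the clusters may rest on genes such as these, so the 2 lists describe the cells and are not independent of their G1 calls.

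Many genes of the G2/M programme carry a cell cycle genes homology region just upstream of their start, a short motif at which the MuvB complexes hold them silent in resting cells and activate them in dividing ones. The promoter of Kif11, the 12th of the largest lower ratios, holds this motif and a CCAAT box. It is shown because, of the promoters searched below that hold the motif, it alone overlaps no annotated gene or exon. Those of Cdk1, Top2a, Ube2c and Parpbp also hold both motifs. The stretch is chr19:37376262-37376381, plus strand, 120 bases upstream of the start, from RefSeq on GRCm38.p6, and capitals mark the CCAAT box (here as ATTGG, 45 bases before the start) and the homology region (here as TTCAAA, 19 bases before the start).
Kif11: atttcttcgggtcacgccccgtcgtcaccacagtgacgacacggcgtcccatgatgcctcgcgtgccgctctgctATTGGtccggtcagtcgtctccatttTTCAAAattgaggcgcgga
Within 120 bases upstream, 8 of 21 genes (38.1%) held this motif, the 21 being those of the 30 in the G2/M list or among the 12 lowest that were searched. Ska1, Pif1 and the 5 histone genes are among those not searched. The share was 13.5% of the 445 lower genes with a RefSeq promoter, 5.21% of the 4664 tested genes and 8.29% of the 27025 genes of the table. For 5 others of the 8, 30 bases around the homology region are shown with the motif, TTTGAA or its reverse complement, in capitals.
Cdk1, chr10:69352913-69352942, minus strand: ctttaccgcggcgagTTTGAAactgctggc
Top2a, chr11:99024195-99024224, minus strand: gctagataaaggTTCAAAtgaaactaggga
Ube2c, chr2:164769888-164769917, plus strand: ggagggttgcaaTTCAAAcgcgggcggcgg
Parpbp, chr10:88146942-88146971, minus strand: ttcccaggtcgtgccgcgagaTTTGAAagg
Mki67, chr7:135716460-135716489, minus strand: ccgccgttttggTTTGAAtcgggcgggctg
Counted from the RefSeq start of the table, the motif begins 15 bases before it in Cdk1, 23 in Top2a, 29 in Ube2c and 9 in Parpbp, and 98 in Mki67. Cdk1 and Mki67 held 2 matches each, of which the one nearer the start is shown. The GENCODE starts of Cdk1 and Ube2c lie further upstream, so there the motif falls inside the annotated gene. An annotated gene or exon overlaps the 120 bases of each of these 5, and none overlaps those of Kif11. All 6 genes were lower in cluster 1, by log2 ratios from -2.01 and -2.18 in Ube2c to those of Kif11 and Parpbp.

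Over 250 bases upstream of the start, TTTGAA on either strand was found for 98 of the 445 lower genes with a RefSeq promoter (22.0%), 30 of the 223 higher genes (13.5%) and 602 of all 4664 tested genes (12.9%). Over the 27025 genes of the RefSeq promoter table the share was 18.3%. CCAAT on either strand was found in 55.1% of the lower genes, 41.7% of the higher ones and 41.4% of all tested. Other motifs were rarer. The E2F sites TTTCCCGC and TTTGGCGC were found in 5.84% and 3.15% of the lower genes, 0% of the higher ones and 2.57% and 1.20% of all tested. The E-box CACGTG was found in 8.32%, 7.18% and 10.8%, and the forkhead site TGTTTAC in 2.47%, 5.38% and 2.59%. These are matches of letters in a window, with no evidence here of binding.

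Regulators of the G1 phase lay mostly on the lower side. Of 15 measured members of the list, 6 were lower and none was higher, and 12 had a ratio below equality in both libraries and 1 above it, with a median of -0.50. Ccne1 (-1.53 and -1.98) and Ccne2 (-2.16 and -2.28), the E cyclins that open S phase, and E2f1 (-1.18 and -1.20), a transcription factor of that step, were lower. Cdk6, a kinase of G1, was lower at -0.64 and -0.65, and so was Cdkn2d, an inhibitor of that kinase, at -0.72 and -0.73. Ccnd3, the D cyclin of dark zone division, was at 282 and 287 CPM against 237 and 245 CPM, log2 ratios of 0.25 and 0.22, and did not meet the rule.

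MYC and the growth genes that it drives were low in cluster 1. Myc was at 15.04 and 19.1 CPM against 27.9 and 30.1 CPM, log2 ratios of -0.89 (-1.19 to -0.60) and -0.66 (-0.92 to -0.40), and both libraries of cluster 1 lay below both of the other cells. By cluster, Myc was highest in cluster 5, at 104 and 108 CPM among clusters 0 to 7, and the 17.8 and 20.6 CPM of cluster 0 and 7.79 and 8.16 CPM of cluster 4 were near or below cluster 1. Mxd4, which opposes it, was higher (above), while Mxd3, a related gene expressed in dividing cells, was lower at 6.33 and 5.73 CPM against 42.8 and 46.7 CPM. Of 15 MYC-driven growth genes 6 were lower and none higher, with a median of -0.52. Low medians of this list against all other cells were also found in clusters 6 (-0.45), 3 (-0.40) and 4 (-0.30), and the highest in cluster 5 (1.40). Srm, which makes spermidine, was at 24.04 and 29.99 CPM against 55.7 and 59.04 CPM, log2 ratios of -1.21 and -0.98. Ncl, the nucleolar protein nucleolin, was at 692 and 721 CPM against 1125 and 1161 CPM, log2 ratios of -0.70 and -0.69. Nop56 (-0.87 and -0.85) and Nolc1 (-0.84 and -0.89) of the nucleolus were also lower, and Odc1, which makes putrescine, was at 0.04 and 0.05. Of the 20 quiescence and FOXO target genes measured, 1 was higher, Ypel3 (0.64 and 0.90), and 1 lower, Klf2 (-2.34 and -1.94), with a median of 0.17. Of these 20, 13 had a ratio above equality in both libraries and 5 below it. Against other G1 cells none of 21 was higher and 3 were lower (median -0.24), and 12 had a ratio below equality in both libraries. Of all tested genes 1.03% were higher and 4.18% lower there. Cluster 6 made up 19.99% and 9.96% of those other G1 cells and was high in Klf2 (below), and its part in this list was not tested.

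Light zone activation genes were higher against all other cells, 5 of 10, with a median of 0.47. Cd83, which stabilises MHC class II at the surface, was at 285 and 325 CPM against 197 and 191 CPM, log2 ratios of 0.54 and 0.77. Cd86, which gives T cells their costimulus, was at 97.01 and 95.7 CPM against 58.97 and 58.6 CPM, log2 ratios of 0.72 and 0.71. Cd72, Fcer2a and Il4i1 were the other 3 higher members, at 0.50 and 0.75, 0.50 and 0.64 and 0.72 and 0.64. Nfkbia, an inhibitor and target of NF-kB, was at -0.06 and -0.08, and none of 17 genes of the CD40/NF-kB list met the rule (median 0.15). Of the naming lists the highest median was that of the erythroid genes, 0.50 over 3 genes, followed by Lck alone for T cells (0.47) and by the light zone list (0.46 over 10 genes). Of the erythroid genes Hbb-bt met the rule, at 0.68 and 0.55.

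Of 7 dark zone genes 2 were higher and 2 lower, with a median of 0.10. Foxp1, a transcription factor on this list, was higher at 434 and 437 CPM against 270.2 and 238 CPM, log2 ratios of 0.68 (0.62 to 0.74) and 0.87 (0.82 to 0.93). It was at 204 and 196 CPM in cluster 0 and 223 and 216 CPM in cluster 4, where 96.9% to 98.2% of cells were called dark zone. In clusters 3 and 6 it was at 419 and 377 and 440 and 394 CPM. Hmmr, a spindle protein, and Polh, a polymerase of hypermutation, were lower at -2.84 and -3.11 and -1.40 and -1.37. Cxcr4, the receptor that draws cells to the dark zone, was at 117 and 86.1 CPM against 105 and 82.8 CPM, and Foxo1, which keeps the dark zone programme, at 284 and 279 CPM against 214 and 218 CPM. Neither met the rule, with log2 ratios of 0.15 and 0.06 and 0.41 and 0.36. Of the 11 hypermutation genes 4 were lower and 1 higher (median -0.22), among the lower ones them Exo1 (-3.29 and -2.30) and Pms2 (-0.53 and -0.64), which act in mismatch repair.

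Antigen presentation and B cell receptor genes lay on the higher side. Of 11 MHC class II genes 5 were higher, with a median of 0.51. Cd74, the invariant chain, had ratios of 0.52 and 0.62, H2-Aa, a chain of the class II molecule, 0.51 and 0.82, and H2-DMa, which loads peptide, 0.70 and 0.79. H2-DMb1, its partner chain, was at 0.14 and -0.01. Of 21 B cell receptor signalling genes 4 were higher (median 0.31), and 20 of the 21 had a ratio above equality in both libraries. The receptor chains Cd79a (0.53 and 0.66) and Cd79b (0.62 and 0.74) and the inhibitory receptors Fcgr2b (0.61 and 0.66) and Cd72 were the 4. These levels were not particular to cluster 1. In cluster 6 Cd74 was at 19572 and 18206 CPM, against 17545 and 18354 CPM in cluster 1. Cd79a was at 2816 and 2522 CPM in cluster 6 against 2285 and 2234.5 CPM, while Cd79b and Fcgr2b were lower in cluster 6 than in cluster 1. Of 16 GC identity genes 2 were higher, Rgs13 (0.56 and 0.65), a brake on chemokine receptor signalling, and Spib (0.51 and 0.58). Ezh2, a histone methyltransferase high in dividing GC cells, was lower at 90.7 and 88.6 CPM against 219 and 219 CPM.

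A few receptors for position and cytokines were higher. Cxcr5, which draws B cells into follicles, was higher at 132 and 134 CPM against 81.4 and 76.1 CPM, log2 ratios of 0.70 and 0.82. It was the 1 higher gene of 11 trafficking receptors measured, 7 of them tested, where 4.92% of all tested genes were higher. Of 15 cytokine receptors 3 were higher, Il4ra, Tnfrsf13c and Tgfbr2. Il4ra, the IL-4 receptor chain, was at 129 and 122 CPM against 83.3 and 72.3 CPM, log2 ratios of 0.63 and 0.76. Tnfrsf13c, the receptor for the survival factor BAFF, was at 368 and 365 CPM against 235 and 231 CPM, log2 ratios of 0.65 and 0.66, and Tgfbr2 had 0.59 and 0.70. Of the 7 IL-4/STAT6 response genes 3 were higher (median 0.26), and these were Il4ra, Fcer2a and Il4i1. Of 14 immediate early genes, those that antigen signals switch on within minutes, 2 were lower, Fos (-0.74 and -0.70) and Jun (-0.81 and -0.73), with a median of -0.01. By cluster, Fos was at 53.0 and 54.9 CPM in cluster 1, 43.0 and 42.7 CPM in cluster 5 and 49.5 and 56.7 CPM in cluster 4. Among clusters 0 to 7 it was highest in cluster 3, at 180 and 190 CPM.

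Few sterol genes met the rule. Of 8 measured genes of sterol efflux and the LXR response, 2 were higher (median 0.38), Apoe and Abca1, the latter a marker of the cluster. Apoe, a lipid-carrying protein, was at 966 and 1035 CPM against 609.9 and 521 CPM, log2 ratios of 0.66 and 0.99. Abcg1, a second exporter, was near the limit of measurement at 5.06 and 5.997 CPM against 2.59 and 1.76 CPM. Of 17 genes of sterol synthesis and uptake, 14 of them tested, 2 were lower, where 9.8% of all tested genes were lower. The median was -0.29, and 13 of the 17 had a ratio below equality in both libraries. Insig1, which holds back sterol synthesis and is itself induced when sterols are low, was lower at 26.3 and 29.2 CPM against 41.1 and 44.4 CPM, log2 ratios of -0.65 and -0.60.

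Other lists held few members past the rule, where 4.92% of all tested genes were higher and 9.8% lower. Of 23 cAMP and small GTPase regulators 4 were higher (median 0.20): Rapgef4, Arhgap24, Rac2 (0.60 and 0.73) and Dock10 (0.51 and 0.72), an exchange factor for small GTPases. All 23 had ratios above equality in both libraries. Of 16 lysosome and autophagy genes 2 were higher, Gabarapl2 (0.78 and 0.74) and Sqstm1 (0.66 and 0.69), with a median of 0.39. Of 15 apoptosis regulators 1 was higher, Bbc3 (0.72 and 0.67), which encodes the death-promoting protein PUMA. Of 13 chaperones 2 were lower, Hsp90aa1 (-0.85 and -0.93) and Hsp90b1 (-0.82 and -0.63). Of 15 memory-associated genes 1 was higher and 1 lower (median -0.25), and of 7 naive follicular genes 3 were higher and 1 lower (median 0.09), with medians of -0.21 in replicate 1 and 0.40 in replicate 2. Of the 9 plasma cell genes Mzb1 was higher (0.80 and 1.003) and Slpi lower (-0.67 and -1.20). None of 14 glycolysis, 18 oxidative phosphorylation, 10 interferon response, 81 cytosolic ribosomal protein and 13 mitochondrially encoded genes met the rule, and the last had a median of -0.27.

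The comparison with other G1 cells asked what set cluster 1 apart among cells that share the G1 call. Far fewer genes were higher: 63 of 6105 (1.03%), with 255 (4.18%) lower and a median of -0.05 over the 9193 genes at 5 CPM or more. With TMM scaling 101 were higher and 191 lower, and with median-of-ratios scaling 104 and 188, in place of 63 and 255. With replicate 2 alone 151 were higher and 466 lower, and with replicate 1 alone 134 and 459. The other G1 cells numbered 4199, of which 36.6% and 36.9% were in cluster 3 and 20.04% and 20.1% in cluster 2. A further 19.99% and 9.96% were in cluster 6 and 11.1% and 12.7% in cluster 5. They were shallower, with medians of 2429 and 2058.5 UMIs against 2898 and 2738.5 for the G1 cells of cluster 1, and had 8.47% and 9.37% of mitochondrial UMIs against 6.61% and 6.65%. With every cell thinned to 1000 UMIs, 60 genes were higher, 36 of them (57.1%) among the 63, and 242 were lower, 163 of them (63.9%) among the 255. The part of mitochondrial content in the result was not tested.

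Of the 63 genes, 49 (77.8%) were also higher against all cells, which is 16.1% of those 304. The largest ratios were those of Sapcd1, at 37.7 and 40.5 CPM against 18.2 and 16.4 CPM, log2 ratios of 1.06 (0.72 to 1.40) and 1.30 (0.97 to 1.64). Anxa2, a calcium-dependent membrane-binding protein, was at 230.0 and 216 CPM against 118 and 125 CPM, log2 ratios of 0.96 and 0.79. Efnb1, the ligand ephrin-B1 with which GC B cells act on T cells, was at 84.97 and 95.4 CPM against 49.3 and 55.6 CPM, log2 ratios of 0.79 and 0.78. For these genes both libraries of cluster 1 were above both of the other G1 cells. Smco4 (0.84 and 0.97), Nxpe2 (0.79 and 0.96), Cpne5 (0.78 and 0.84), Sord (1.08 and 0.77) and Gsn (0.76 and 0.78) made up the 8 largest. Among the 4 markers, Abca1 (0.80 and 0.75), Arhgap24 (0.52 and 0.75) and Mxd4 (0.58 and 0.62) were still higher, and Rapgef4 was at 25.4 and 27.7 CPM against 19.5 and 17.9 CPM, log2 ratios of 0.38 and 0.63, which did not meet the rule.

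Against other G1 cells the light zone genes no longer stood out, and cluster 1 lay on the side of less MYC and less replication. None of the 10 light zone activation genes met the rule in either direction (median -0.11), and Cd83 was at 0.08 and 0.13, Cd86 at 0.33 and 0.25, Fcer2a at -0.39 and -0.20 and Il4i1 at -0.28 and -0.42. Myc was at 13.7 and 17.5 CPM against 41.1 and 44.8 CPM, log2 ratios of -1.58 (-1.95 to -1.22) and -1.36 (-1.68 to -1.04), and 6 of 15 MYC-driven growth genes were lower (median -0.52), among them Srm (-1.62 and -1.32). Ccnd2, the D cyclin that MYC-positive light zone cells switch on, was at 17.4 and 23.2 CPM against 51.6 and 62.02 CPM, log2 ratios of -1.57 and -1.42. Over all cells of a cluster, Ccnd2 was at 157 and 186 CPM in cluster 5 and 45.1 and 39.7 CPM in cluster 6. In cluster 1 it was at 17.0 and 23.5 CPM, above its levels in clusters 0, 2, 3 and 4. The part of cluster 5 in the ratios of Myc, Srm and Ccnd2 was not tested. Although all these cells carried G1 calls, 6 of 18 G2/M genes (median -0.74) and 6 of 20 S phase genes (median -0.58) were lower. Mki67 was at 319 and 311 CPM against 550.4 and 579 CPM, E2f1 had ratios of -0.66 and -0.85, and Jun was lower at -1.41 and -1.17.

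Against other light zone cells, 135 of 6240 genes (2.16%) were higher in the light zone cells of cluster 1 and 550 (8.81%) lower, with a median of -0.04 over 9245 genes. With replicate 2 alone 333 were higher and 855 lower, and with replicate 1 alone 247 and 749. Median depth was 2752 and 2667 UMIs in cluster 1 and 2788 and 2424.5 in the 4613 others. Mitochondrial UMIs made up 6.97% and 6.89% against 8.49% and 9.21%, and their part in the result was not tested. With every cell thinned to 1000 UMIs, 61 of the 135 higher genes (45.2%) were still higher and 379 of the 550 still lower. Of the 4613 others 27.4% and 28.1% were in cluster 3 and 25.7% and 25.9% in cluster 2. A further 19.9% and 22.6% were in cluster 5 and 17.4% and 8.55% in cluster 6. Sapcd1, at 46.7 and 49.4 CPM against 18.2 and 18.4 CPM, and Abca1, at 40.9 and 30.4 CPM against 17.4 and 12.2 CPM, led, with log2 ratios of 1.36 and 1.42 and 1.24 and 1.31. Abcb4, a phospholipid transporter, was at 20.8 and 25.6 CPM against 10.2 and 7.34 CPM, log2 ratios of 1.03 and 1.80. For these genes both libraries of cluster 1 lay above both libraries of the other light zone cells. Cd300lf (1.10 and 1.01), Gsn (0.97 and 1.27), Cpm (0.95 and 1.07) and Sord (1.08 and 0.93) followed, and the other 3 markers, Arhgap24 (0.76 and 0.96), Rapgef4 (0.71 and 0.996) and Mxd4 (0.90 and 1.05), were all higher.

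The lower side of the light zone comparison held replication and growth genes. Of the 20 S phase genes 19 were lower (median -1.16), of the G2/M list 10 (median -1.14) and of the 15 MYC-driven growth genes 10 (median -0.91). Myc was at 19.2 and 23.8 CPM against 57.3 and 65.2 CPM, log2 ratios of -1.58 and -1.46. Srm was at 25.9 and 35.6 CPM against 104 and 112 CPM and Ccnd2 at 25.2 and 33.8 CPM against 76.9 and 90.2 CPM. For each of the 3 genes both libraries of cluster 1 lay below both libraries of the other light zone cells as a whole. Of those cells 19.9% and 22.6% were in cluster 5, where Ccnd2 was at 157 and 186 CPM over all cells. By the same measure Ccnd2 in cluster 1 was above its levels in clusters 2 and 3 and below those in cluster 6. The part of cluster 5 in the lower growth genes was not tested. Hk2, which starts glycolysis, was lower at -1.05 and -1.10. Of the light zone activation list 1 gene, Nfkbia, was lower, at 336 and 327 CPM against 477 and 494 CPM, and none was higher (median -0.07), with Cd83 at 0.07 and 0.15. Of 17 CD40/NF-kB genes 1 was lower. Both shares are near or below the 8.81% of all tested genes.

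Some genes of the lower side were high in cluster 6, which had the highest medians of the naive follicular and memory-associated lists. Against the other G1 cells Klf2, which keeps B cells quiescent and recirculating, was at 10.3 and 6.62 CPM against 164 and 81.02 CPM. S1pr1, the receptor for leaving lymphoid tissue, was at 5.37 and 4.06 CPM against 46.6 and 32.7 CPM. In cluster 6 the levels of these genes were 449.5 and 394 and 115 and 136 CPM. Without cluster 6, an alternative chosen after seeing the data, Klf2 and S1pr1 had log2 ratios of -0.64 and -0.37 and -0.70 and -0.62. S100a10 went from -5.08 and -5.05 to -0.94 and -1.37 and Plac8 from -3.05 and -3.20 to 0.82 and -0.44. Sub1, a transcriptional coactivator, was lower both with (-2.39 and -2.11) and without cluster 6 (-1.28 and -0.90).

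Without cluster 6 more genes stood higher in cluster 1. Against G1 cells 147 of 6155 (2.39%) were higher and 373 (6.06%) lower, and against light zone cells 277 of 6271 (4.42%) were higher and 728 (11.6%) lower. Of the 63 genes higher against all G1 cells 42 (66.7%) were still higher, and of the 135 against light zone cells 106 (78.5%). Of the 255 lower genes against all G1 cells 208 (81.6%) were still lower, and of the 550 against light zone cells 520 (94.55%). Cd38, low in GC cells and higher in naive and memory B cells, then had log2 ratios of 0.59 and 0.83 against G1 cells and 1.03 and 1.32 against light zone cells. Fcmr, the IgM receptor, had 0.69 and 0.88 and 0.88 and 1.18. Vim, a filament protein, had 0.63 and 0.65 and 0.88 and 0.87, and Ddit4 had 1.59 and 1.17 and 1.69 and 1.56. The median of the memory-associated list moved from -1.24 to -0.14 against G1 cells, and that of the naive follicular list from -1.37 to 0.33. With cluster 6 left out Rapgef4 was higher against G1 cells (0.65 and 0.94), and so was H2-Aa (0.70 and 0.75).

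The 3 comparisons share the cells of cluster 1 and many of the others, so their overlap is a count and no support. In all 3, 44 genes were higher and 146 lower. The 44 include Abca1, Arhgap24, Mxd4, Anxa2, Cd300lf, Cpm, Cpne5, Efnb1, Gsn, Nxpe2, Rgs13, Sapcd1, Smco4, Sord, Spib and Trpm5.

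**Figure D3:**
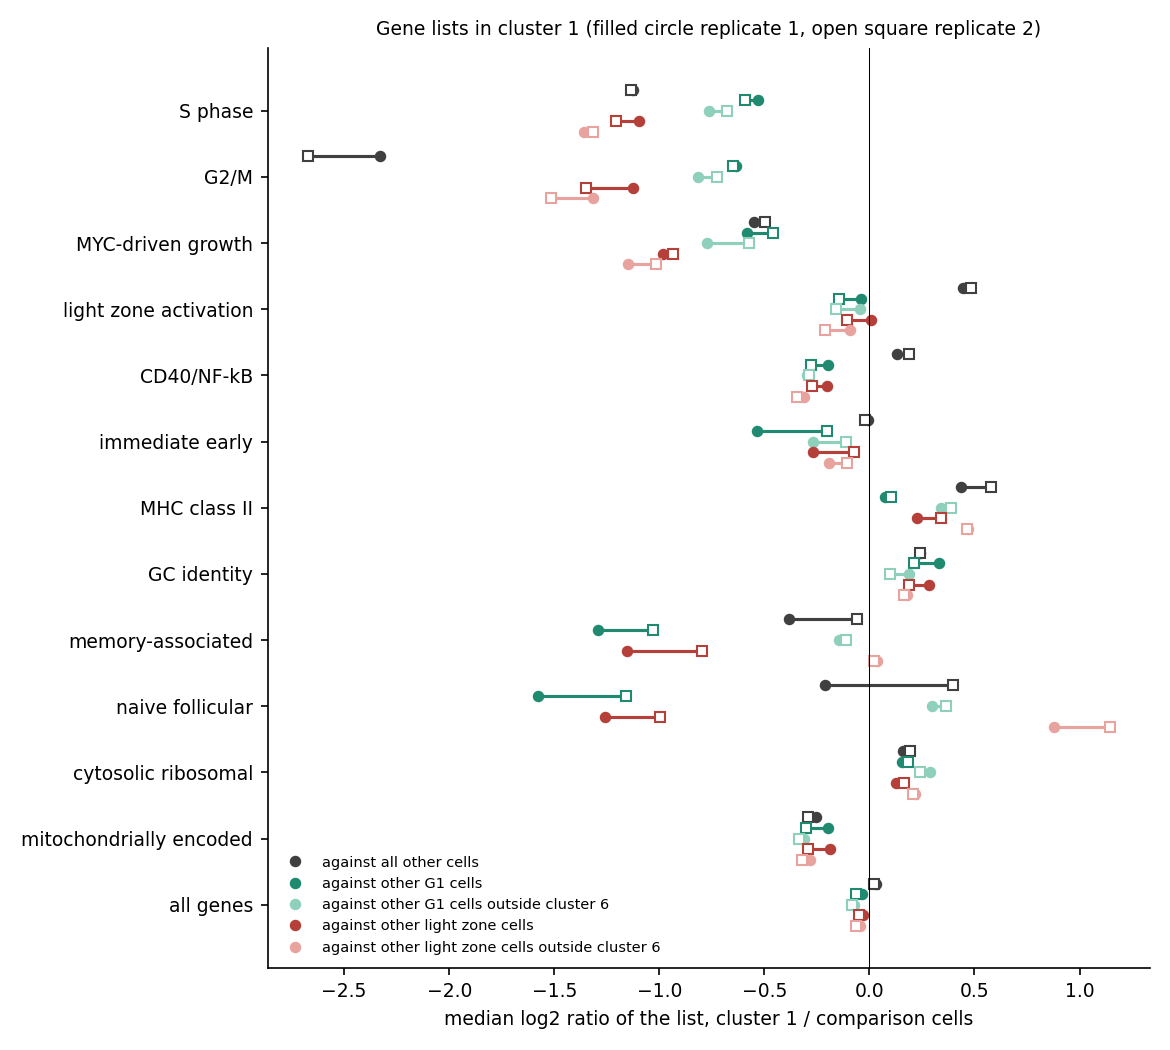
Median log2 ratio of the members of each gene list (x axis) for cluster 1 against all other cells, other G1 cells and other light zone cells, and the last 2 without cluster 6, with replicate 1 as filled circles and replicate 2 as open squares. The G2/M list is lowest against all cells, with a median of -2.50, and the light zone activation list goes from 0.47 against all cells to -0.11 against G1 cells.

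The clusters most like cluster 1, by the correlation of log2 levels over 8185 genes with both libraries summed, were clusters 2 (r = 0.963), 3 (0.944) and 4 (0.942). Cluster 2 had its highest list median in S phase genes. Against it 345 of 6116 genes (5.64%) were higher in cluster 1 and 539 (8.81%) lower. Il4i1 (1.83 and 1.91), Ddit4 (1.91 and 1.73) and Abca1 (1.45 and 1.59) led the higher genes. Cdc6 (10.5 and 11.5 CPM against 107 and 109 CPM), E2f7 (-3.20 and -3.11) and Brca1 (-2.96 and -2.85) were among the lowest.

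Cluster 4 had its highest list median in G2/M genes, and 470 of 6111 genes (7.69%) were higher in cluster 1 and 525 (8.59%) lower. Arhgap24 differed most on the higher side, at 54.7 and 62.4 CPM against 12.1 and 9.66 CPM, followed by Abca1 (2.12 and 2.57), Hivep3 (2.09 and 2.09) and Slfn2 (2.07 and 2.53). Pimreg was at 0.84 and 1.199 CPM against 39.9 and 41.4 CPM and Aspm, a spindle pole protein, had ratios of -4.62 and -4.72.

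Of these 3, cluster 3 was the nearest in Abca1 and Mxd4 and had the most genes that differed. Of 6264 genes 881 (14.1%) were higher in cluster 1 and 827 (13.2%) lower. Abca1 (-0.01 and 0.08), Mxd4 (0.23 and 0.34) and Cd83 (0.14 and 0.21) did not meet the rule, and Arhgap24 was higher in cluster 1 (0.89 and 0.69). Among the 8 largest higher ratios were those of Cox6c (1.51 and 1.86), a subunit of the respiratory chain, and Tmem258 (1.84 and 1.61). Of 81 cytosolic ribosomal protein genes 69 were higher (median 0.89), and all 13 mitochondrially encoded genes were lower (median -0.66). The lower side was led by Jun (35.2 and 45.6 CPM against 176 and 233 CPM), Gxylt2 (-1.998 and -2.09) and Lars2, the mitochondrial leucyl-tRNA synthetase (2015 and 2088 CPM against 7301 and 8011 CPM). Cluster 3 cells had medians of 1294 and 1162 UMIs and 12.3% and 13.5% of mitochondrial UMIs, against 2988.5 and 2842 UMIs and 6.61% and 6.64% in cluster 1. The part of depth and of mitochondrial content in this comparison was not tested.

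Within cluster 1 the cells called light zone and those called dark zone differed in 287 of 5956 genes (4.82%) higher and 226 (3.79%) lower on the light zone side. Genes that went into the call, which are not known here, would differ by construction. Il4i1, an amino acid oxidase that IL-4 induces, was at 157 and 161 CPM against 29.4 and 30.02 CPM, log2 ratios of 2.42 and 2.43. Ccnd2 was at 25.2 and 33.8 CPM against 3.13 and 5.46 CPM, log2 ratios of 3.01 and 2.63, and Marcks, which links the membrane to actin, at 36.6 and 44.6 CPM against 7.05 and 7.02 CPM. Each was several times higher in the light zone cells in both libraries. Egr3 (3.98 and 2.27), Shank1 (4.30 and 1.98), Hivep3 (1.87 and 1.93), Nfkbid (2.62 and 1.84) and Abcb4 (1.73 and 2.13) completed the 8 largest. Lists of activation genes moved together: 9 of 10 light zone activation genes were higher (median 1.14), as were 12 of 17 CD40/NF-kB genes (0.996), 8 of 15 immediate early genes (0.88) and 7 of 21 B cell receptor signalling genes. Cd83 was at 389 and 430.5 CPM against 111 and 141 CPM. Of the 4 markers Arhgap24 (1.80 and 1.24), Abca1 (0.95 and 0.70) and Rapgef4 (0.58 and 0.67) were higher on the light zone side, and Mxd4 (0.30 and 0.41) did not meet the rule.

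The dark zone cells of cluster 1 carried more of the G2/M messages. Of the G2/M list 13 genes were lower on the light zone side (median -1.62). Cdca3, which helps the cell into mitosis, was at 11.4 and 10.2 CPM against 77.98 and 73.3 CPM, and Ccnb2 at 15.2 and 17.7 CPM against 122 and 99.8 CPM. Jchain, the joining chain of IgM and IgA, was lower on the light zone side at -0.72 and -0.65. The dark zone cells were deeper, with medians of 3751 and 3568 UMIs against 2752 and 2667, and 15.0% and 13.5% of them were called S or G2/M. With those phases left out on both sides, 274 of 5933 genes (4.62%) were higher and 184 (3.1%) lower on the light zone side. Ccnb2 still had ratios of -2.95 and -2.44, Il4i1 of 2.90 and 2.95 and Cd83 of 1.87 and 2.05.

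**Figure D4:**
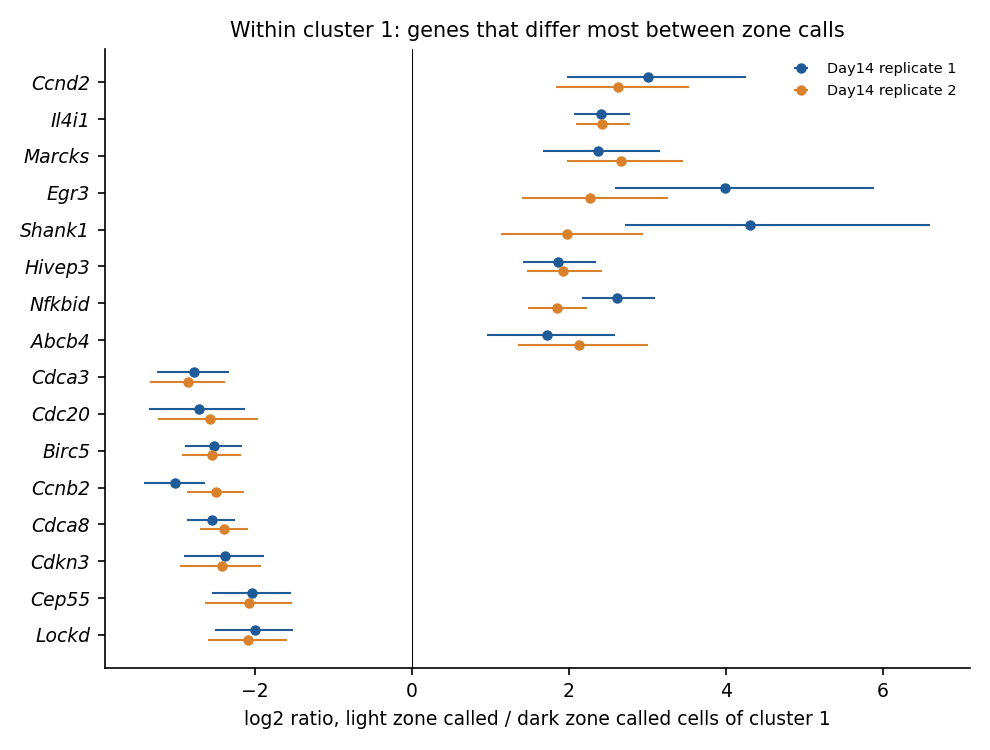
Log2 ratio of light zone to dark zone cells within cluster 1 (x axis) for the 8 genes with the largest ratios on each side, by library, with 95% counting intervals as bars. Ccnd2 is at 3.01 and 2.63 and Cdca3 at -2.78 and -2.84, and no interval reaches 0.

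The few cells of cluster 1 called S or G2/M differed from its G1 cells in the markers too. Abca1 was at 37.1 and 29.1 CPM against 6.404 and 9.29 CPM, G1 cells first, and Mxd4 at 158 and 165 CPM against 78.1 and 73.2 CPM. Myc was at 13.7 and 17.5 CPM against 25.6 and 31.4 CPM and Mki67 had log2 ratios of -1.33 and -1.38. In the S or G2/M cells Abca1 was thus near its level in clusters 0 and 4, and Mxd4 was near its level in clusters 2 and 4.

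Between the libraries cluster 1 differed little. Of 6009 genes 26 (0.433%) were higher in replicate 2 than in replicate 1 and 33 (0.549%) lower, by the same rule within the pair. Ctse, an aspartic protease of the endosome, had a log2 ratio of 1.38 in cluster 1 and 1.33 in the other cells. Rnpep, an aminopeptidase, had -2.29 and -1.74. The myeloid genes S100a8 (-1.54 and -1.47) and S100a9 (-1.26 and -1.17) shifted alike on both sides. Apex1, which acts in base excision repair, had 0.57 in cluster 1 and 0.01 in the others.

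The other libraries have no cluster 1 of their own, so cells with both a light zone and a G1 call were compared with the remaining cells of their library. Such cells numbered 372 and 752 in the Day7 libraries, 2685 and 3037 in Day14, 2398 in the chimaera control and 1948 in the KO. They were 36.8%, 29.7%, 29.5%, 28.5%, 29.8% and 26.6% of their libraries. The genes read were the 12 with the largest ratios on each side of cluster 1 against all cells. Of the 12 higher genes, 10 and 11 had a ratio above equality with an interval that left it out in the Day7 libraries, 12 in each Day14 library, 10 in the control and 10 in the KO. Of all genes at 5 CPM or more, 28.2% and 33.5% (Day7), 34.2% and 35.2% (Day14), 26.4% (control) and 25.7% (KO) did so. Their median log2 ratios were 0.91, 1.07, 1.27, 1.40, 1.13 and 0.93 in that order. The 12 lower genes are mitotic and histone genes, and the cells were picked by a G1 call that may rest on such genes, so their direction can be fixed by the choice of cells and is given as a description. All 11 listed in the Day7 tables and all 12 in the others were lower by this measure, where 20.9% and 24.7% (Day7), 23.4% and 22.8% (Day14), 41.2% (control) and 36.4% (KO) of all genes were, with medians of -4.49, -4.51, -3.52, -3.75, -2.76 and -2.27. The Day14 values share their cells with the choice of these genes. The other 4 libraries do not, but their cells were also picked by zone and phase calls.

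Abca1 was higher in the light zone G1 cells of every library. Its levels were 8.18 and 7.26 CPM against 2.72 and 3.32 CPM in Day7, 33.2 and 24.6 CPM against 11.8 and 8.65 CPM in Day14, 8.51 CPM against 3.86 CPM in the control and 4.98 CPM against 2.28 CPM in the KO. The log2 ratios were 1.59 and 1.13 (Day7), 1.49 and 1.51 (Day14), 1.14 (control) and 1.13 (KO). Mxd4 had 0.97 and 1.26, 1.08 and 1.14, 0.79 and 0.74. Ddit4 had 1.82 and 1.42, 1.73 and 1.70, 1.84 and 1.58. The values of Sapcd1 were 0.77 and 0.89 in Day14, against -0.17 and 0.02 in Day7, -0.04 for the control and 0.30 for the KO, a difference that was not tested. The light zone G1 cells had medians of 12549.5 and 13353.5 UMIs (Day7), 2624 and 2386 (Day14), 5625.5 (control) and 5569 (KO), and the tables of the 3 experiments list 27998, 31053 and 15763 genes, so levels are compared within a library. The control and the KO are 1 library each, and no difference between them was tested.

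**Figure D5:**
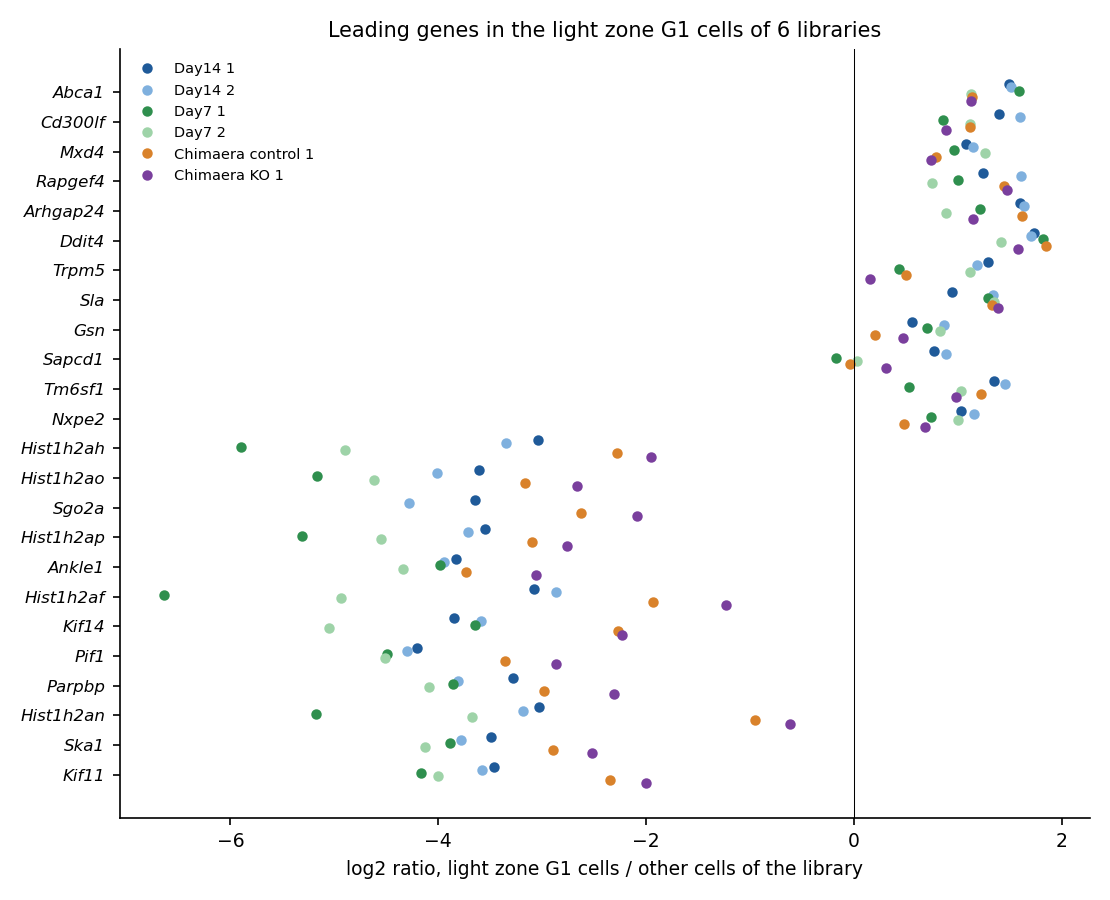
Log2 ratio of light zone G1 cells to the remaining cells of the same library (x axis) for the 12 higher and 12 lower genes of cluster 1, with 1 point for each of the 6 libraries that lists the gene. The Abca1 ratios lie between 1.13 and 1.59, and the ratios of the lower genes are all below 0.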

How the data were processed

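The values were deposited UMI counts per gene and cell, made by the authors with Cell Ranger and Seurat on mm10 per the submitters' processing notes, which give no versions. Other steps, such as how the phase, zone and cluster calls were made, are not given in the sources used here. The deposited Day14 cells held 500 to 9998 UMIs and at most 19.99% of mitochondrial UMIs, and no further filter on cells was applied. A column of barcode names (1) was not used. The members and gene lists were chosen with earlier results of these data known.

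Counts were summed per side and library, scaled to CPM and compared as log2 ratios with exact 95% conditional binomial intervals, which cover counting error only. UMIs are molecules, but cells are not replicates and the 2 libraries may be technical replicates. A side with 0 counts was set to 3 counts. The share of cells has a Clopper-Pearson interval. Genes were named by rule: the 4 markers, the 12 largest ratios on each side of the first comparison and the 8 largest in later ones (without immunoglobulin, mitochondrial, ribosomal and predicted genes), and from each list its 2 highest and 2 lowest members and any past the size rule. Cxcr4, Foxo1, Ptprc and the members of the marker lists for other cell types fall outside it and were named for their role after their values were seen. Some genes that the rule names are not reported here. In further comparisons a gene named by any part of the rule may be named again.

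Doublet scores came from Scrublet in Scanpy 1.11.5, TMM factors from edgeR 4.0.16 (R 4.3.3) and the rest from Python 3.11.15 with numpy 2.4.6, scipy 1.17.1, pandas 2.3.3 and matplotlib 3.10.9. The scripts were tested on simulated counts. Gene places are from GENCODE M21 on GRCm38, which matched 6129 of the 6173 tested symbols, and promoters from RefSeq on GRCm38.p6, which matched 4664 of 5793. Alternatives changed the minimum level, the size of the ratio, the scaling, the weighting of cells and clusters, the depth, the doublets, the phases and the libraries used.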

Additional observations from a re-analysis of the deposited data

How the results depend on the processing

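No value rests on a test, and the 2 libraries cannot show how animals differ. Counting intervals leave out that spread, and low genes move most with the minimum level. No paired analysis was possible because no result comes from a test, and each ratio against other cells is already taken within a library. Against all other cells, 464 genes were higher with a minimum of 5 CPM, 523 with no minimum and 12 with a log2 ratio of 1, and 973 were lower with no minimum and 307 with a log2 ratio of 1. With 1 library left out the higher count ranged from 386 to 530 and the lower from 690.0 to 747. Against G1 cells, 98 were higher with no minimum, 3 with a log2 ratio of 1, 101 with TMM and 104 with median-of-ratios scaling, and 147 without cluster 6. The lower counts were 536 with 5 CPM, 652 with no minimum and 49 with a log2 ratio of 1. With 1 library left out they were 134 to 151 higher and 459 to 466 lower. Against light zone cells, 211 were higher with no minimum, 8 with a log2 ratio of 1, 214 without cluster 3 and 277 without cluster 6, and 875 were lower with 5 CPM, 977 with no minimum and 172 with a log2 ratio of 1. With 1 library left out they were 247 to 333 higher and 749 to 855 lower. Between the libraries, 127 genes were higher and 111 lower with 5 CPM and 12 and 14 with a log2 ratio of 1, and none can be left out there. A lower minimum, a larger ratio or 1 library in place of both changes these counts by construction, and for the scalings and for clusters 3 and 6 the cause was not tested beyond the values given above.

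Leaving out cluster 3, 6 or 7 was chosen after seeing the data. Without cluster 6 the mean ratio of Plac8 turned to 0.19 against G1 cells and 0.73 against light zone cells. Of the named gene values under alternatives, 379 of 384 against all cells, 252 of 285 against G1 cells and 237 of 255 against light zone cells kept both direction and side of the size rule. Over all genes past the rule fewer were shared. With cells thinned to 1000 UMIs, 207 of the 304 genes higher against all cells were still higher, 36 of the 63 against G1 cells and 61 of the 135 (45.2%) against light zone cells, and 536 of 605, 163 of 255 and 379 of 550 were still lower. With cells weighted alike the higher genes shared were 212, 41 and 69, and with other clusters given equal weight 152, 51 and 87. The share of cells in cluster 1 was 23.1% and 22.0% in cells thinned to 1000 UMIs and 23.1% and 21.6% without the 5% of cells with the highest doublet scores.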

Other observations

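The immunoglobulin messages of cluster 1 were mostly IgM, and their light chains held more lambda than those of the other cells. Of its heavy chain constant counts, 76.7% (95% interval 76.1 to 77.3%) in replicate 1 and 75.1% (74.4 to 75.7%) in replicate 2 were Ighm, against 72.2% and 68.7% in the other cells. The other cells are taken here without cluster 9, whose highest list median was that of plasma cell genes. They still hold cluster 7, with 321 cells in replicate 2 only, whose part in the replicate 2 shares was not tested. Ighg1 was at 10.9% and 7.50% in cluster 1 against 11.5% and 6.73%, an order that differed between the libraries. Ighg2c was at 1.03% and 2.70% against 1.56% and 8.14%, and Ighg2b at 3.34% and 5.94% against 4.92% and 7.12%, both lower in cluster 1 in each library.

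Of the light chain constant counts, Igkc made up 69.0% and 73.5% in cluster 1 against 76.3% and 81.6% in the other cells. Iglc1 was at 15.0% and 11.2% against 11.97% and 8.40%, and Iglc2 at 8.70% and 8.12% against 5.95% and 4.77%. Within cluster 1 Ighm was at 78.0% and 75.9% in light zone cells and 73.2% and 72.8% in dark zone cells. Shares of messages are not shares of cells, since a few cells with many messages weigh more, and the intervals cover counting error only. Iglc2 and Iglc3 are near-identical copies, so their split is uncertain.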
